A study of Mus musculus with 32 samples.

Results

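The RNA levels of 9 genes that write, read or erase DNA methylation were measured in 14 mouse brain tumor biopsies. The genes were chosen by name, and the rows whose Ensembl identifiers map to Dnmt1, Dnmt3a, Dnmt3b, Uhrf1, Mbd2, Tet1, Tet2, Tet3 and Tdg were taken from the 37310 genes of the tumor count table. DNA methylation is the addition of a methyl group to cytosine, mostly where the next base is guanine (CpG). DNMT3A and DNMT3B set new marks, and DNMT1 copies existing marks onto the new strand after replication, guided by UHRF1, which binds half-methylated CpG. MBD2 binds methylated CpG and brings in the NuRD histone deacetylase complex, the TET enzymes oxidise the methyl group, and TDG cuts the oxidised base out so that repair can restore plain cytosine. The study takes an interest in this system, since its authors treated MYC-driven and MYCN-driven tumor cells with an inhibitor of the DNMT enzymes. They also profiled DNA methylation in MYC-driven and MYCN-driven mouse tumors and reported no significant difference between them around the Cdkn2a locus.

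The tumors came from a pair of transgenic mouse models of medulloblastoma, a malignant brain tumor of childhood. In the 6 GMYC tumors, from Glt1-tTA/TRE-MYC mice of the FVBN strain, the promoter of the glutamate transporter Glt1 drove a transactivator that is switched off by doxycycline and that turned on a human MYC transgene. The 8 GTML tumors arose in the corresponding model, in which the same promoter switched on MYCN. The methods name FVB/N as the strain background of every transgenic cross. Each biopsy was labelled as a separate tumor, with no age given. The study sets a GTML tumor with an SHH-like signature apart from the others, but no label names it, and all 8 were used here. Part of the GTML data came from earlier work, so driver gene, model and origin of the libraries cannot be told apart, and in a bulk biopsy fewer cells of a type cannot be told apart from less RNA per cell. The other samples of the series, which are cell lines, were not analysed here.

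Total counts ran from 4602294 to 7279811 per tumor, with a median of 7054382 in GMYC and 5584682 in GTML. Otx2, a transcription factor gene of this tumor type, was between 237 and 378 CPM in every tumor (CPM, counts per 1000000 counts of the library, with library totals scaled by the TMM method), and Syp, a synaptic vesicle gene of neuronal cells, between 80.3 and 158 CPM. Small nucleolar RNAs took at least 0.366% of the counts in 6 tumors, which were GMYC tumors 1 to 4 with GTML tumors 1 and 2, and at most 0.272% in the other 8. The split follows the column order of the table and is no label of the study. Y-linked genes were counted in 6 of 6 GMYC and 4 of 8 GTML tumors. The largest number of counts per exon base of any protein-coding gene of 500 bases or more was 1.27 in any tumor, against at most 0.479 for Dnmt1 and 0.410 for Uhrf1. The part of such a ceiling in the differences below was not tested.

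Of the 9 genes, 4 passed an adjusted p of 0.05 between the models. Tet2 and Dnmt3a were higher in GTML tumors, and Dnmt1 and Tdg were higher in GMYC tumors. The comparison as a whole called 21.2% of the 21024 genes tested (edgeR's quasi-likelihood test with Benjamini-Hochberg adjustment), 11.5% higher in GTML and 9.71% higher in GMYC. All 9 genes passed the filter on low counts. With an adjusted p of 0.01 and an absolute log2 fold change above 1, 0 of the 9 passed, against 3.22% of all genes. When each of the 14 tumors was left out in turn, Tet2 was called in 14 fits, Tdg in 12, Dnmt3a in 8 and Dnmt1 in 3. Tet2 was also the 1 gene of the 9 whose models did not overlap, which 4.62% of all genes tested shared in either direction. Without GTML tumor 2, 5 of the 9 were called, with Uhrf1 added, beside 30.7% of all genes tested.

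The stretch before the start site is shown for the genes whose difference was largest in each direction, Tet2 and Tdg, from RefSeq on GRCm38.p6. Windows from 250 bases before to 50 bases after each annotated start were read for 8 of the 9 genes, and Mbd2 was not used. The Tet2 sequence is the minus strand of chr3:133544391-133544640, and that of Tdg the plus strand of chr10:82629588-82629827. Capitals mark CACGTG, the E-box bound by MYC family proteins, which lies at position -28 from the Tdg start. The 30 bases around a second E-box, at position -80 of a Dnmt3a start, are chr12:3891652-3891681 on the plus strand. The 30 bases around TTTCGCGC, an E2F motif of replication genes, are chr9:20952824-20952853 on the minus strand for Dnmt1, where it reads GCGCGAAA since it lies on the opposite strand of the gene, and chr17:56304117-56304146 on the plus strand for Uhrf1, with the motif in capitals. All sequences are written in the direction of the gene.
Tet2: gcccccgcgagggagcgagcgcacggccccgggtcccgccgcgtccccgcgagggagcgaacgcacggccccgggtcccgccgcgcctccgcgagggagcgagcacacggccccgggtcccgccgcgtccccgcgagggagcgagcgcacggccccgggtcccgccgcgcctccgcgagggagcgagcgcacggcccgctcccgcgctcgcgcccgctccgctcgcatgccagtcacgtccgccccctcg
Tdg: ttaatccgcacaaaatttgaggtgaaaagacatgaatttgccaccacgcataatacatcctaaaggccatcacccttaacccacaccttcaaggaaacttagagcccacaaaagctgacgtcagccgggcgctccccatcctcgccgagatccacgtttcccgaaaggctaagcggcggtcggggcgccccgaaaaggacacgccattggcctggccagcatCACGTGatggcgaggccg
Dnmt3a: tccagtggggccCACGTGacctggagttct
Dnmt1: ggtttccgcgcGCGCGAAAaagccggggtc
Uhrf1: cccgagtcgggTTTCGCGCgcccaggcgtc

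The Tet2 window held 57 CpG, against a median of 7 over the 32851 windows of 300 bases in the table. The window of Tdg held 26, and those of Dnmt3b, Tet3 and Tet1 held 30, 22 and 17. Dnmt3a, Dnmt1 and Uhrf1 have more than 1 annotated start, with 18 to 47, 2 to 33 and 12 to 33 CpG per window. Both motifs were searched on both strands. The E-box was in 7.15% of all windows and in those of Tdg and 1 of the 3 Dnmt3a starts. The E2F motif was in 0.323% of all windows, in that of 1 of 3 Dnmt1 starts, at position -219, where an annotated exon lies, and in that of 1 of 2 Uhrf1 starts, at position -185. These matches describe letters of the reference sequence, and neither methylation nor binding at them was measured in the counts.

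**Figure D1:**
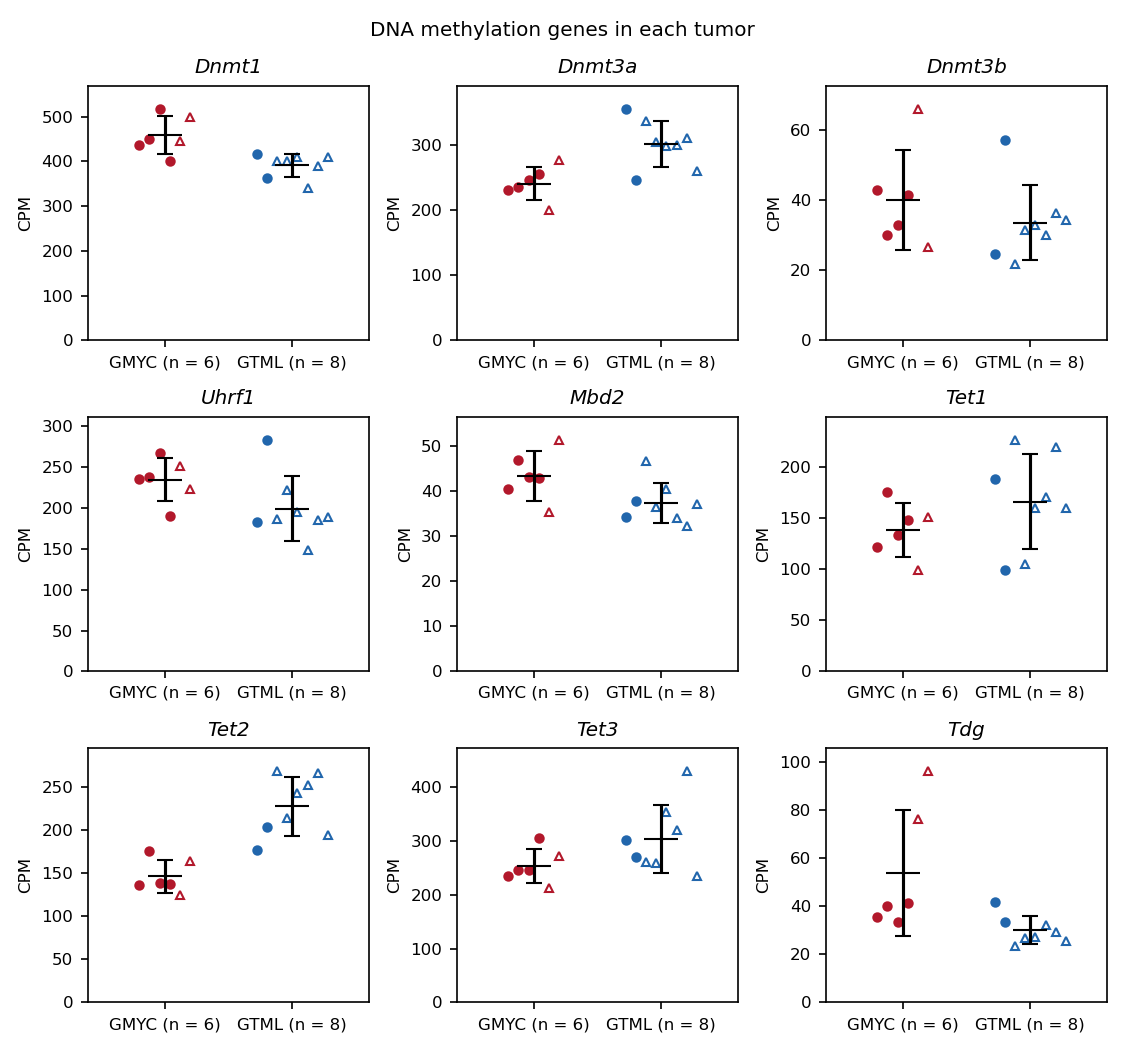
Normalised level (CPM) of each of the 9 genes in each GMYC (red) and GTML (blue) tumor, with the mean and SD in black. Filled circles are tumors with the higher and open triangles tumors with the lower share of small nucleolar RNA counts; Tet2 has no overlap between models, and the highest Tdg values are GMYC tumors 5 and 6.

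Among the writers, Dnmt1, the maintenance methyltransferase, was 1.17-fold higher in GMYC. Its level was lowest at 400 CPM, median 448 and highest at 517 in GMYC tumors, and lowest at 341, median 400 and highest at 416 in GTML tumors. All 8 GTML tumors lay below the GMYC median, but only 3 lay below the lowest GMYC tumor, so the models overlapped. The means were 458 ± 42.8 CPM (SD, n = 6) and 391 ± 26.2 CPM (SD, n = 8), a log2 fold change of -0.23 for GTML over GMYC (SE 0.0773, edgeR adjusted p = 0.0465). Of the 4 calls, this was the one lost most often. The log2 fold change stayed between -0.26 and -0.19 when each tumor was left out, while the adjusted p ran from 0.0316 to 0.12. With relative log expression scaling in place of TMM it was -0.21 (edgeR adjusted p = 0.0716), and with a term for Y-linked counts -0.24 (edgeR adjusted p = 0.109). On the higher and the lower side of the small nucleolar RNA split it was -0.20 (adjusted p = 0.606) and -0.28 (adjusted p = 0.132), both from edgeR.

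Dnmt3a, a de novo methyltransferase, moved the other way and was 1.25-fold higher in GTML. It ranged from 201 CPM through a median of 241 to 278 in GMYC, and from 246 through a median of 302 to 356 in GTML. A set of 6 GTML tumors lay above the highest GMYC tumor, and GTML tumors 2 and 8, at 246 and 260 CPM, did not. The means were 241 ± 25.9 CPM (SD, n = 6) and 302 ± 35.9 CPM (SD, n = 8), and the log2 fold change was 0.32 (SE 0.0979, edgeR adjusted p = 0.0299). Leaving out each tumor gave 0.28 to 0.37 with an adjusted p of 0.0101 to 0.0721. With no filter on low counts it was 0.31 (edgeR adjusted p = 0.0627), and on the higher and the lower side of the split 0.33 (adjusted p = 0.455) and 0.32 (adjusted p = 0.163), both from edgeR. An antisense transcript, Dnmt3aos, shares 0.799% of the exon bases of Dnmt3a, and since the strand setting of the counting is not given, its reads cannot be told apart there.

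Dnmt3b, the other de novo enzyme, was at 26.6 to 65.8 CPM in GMYC (median 37.1) and 21.8 to 56.9 CPM in GTML (median 32.1). The models overlapped over most of their range. GMYC tumor 5 and GTML tumor 2 were the highest of their models. The log2 fold change of -0.25 (SE 0.231, edgeR adjusted p = 0.439) was about the size of its error. It rested on single tumors, being -0.05 without GMYC tumor 5 and -0.40 without GTML tumor 2 (edgeR adjusted p = 0.884 and 0.141). Among tumors on the higher side of the split it was 0.16 (adjusted p = 0.871), and on the lower side -0.58 (adjusted p = 0.216), both from edgeR.

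Uhrf1, the partner that guides DNMT1 to replicated DNA, ranged from 190 CPM through a median of 237 to 267 in GMYC and from 149 through a median of 188 to 283 in GTML. Its highest value in any tumor was that of GTML tumor 2, and 5 of the other 7 GTML tumors were below the lowest GMYC tumor. Over the 14 tumors it differed by -0.23 on the log2 scale (SE 0.124, edgeR adjusted p = 0.177). Without GTML tumor 2 it was -0.32 and passed the threshold (adjusted p = 0.0239, edgeR), so 1 tumor decided that call. On the higher side of the split it was 0.01 (adjusted p = 0.984) and on the lower side -0.35 (adjusted p = 0.138), both from edgeR.

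The reader Mbd2, which ties methylated CpG to NuRD, had 35.3 to 51.2 CPM in GMYC (median 42.9) and 32.3 to 46.6 CPM in GTML (median 36.6). The models overlapped, and the log2 fold change was -0.21 (SE 0.125, edgeR adjusted p = 0.219). In the fits leaving out 1 tumor it was between -0.27 and -0.16, with a call in 0 of 14. The sides of the split gave -0.26 and -0.21 (edgeR adjusted p = 0.576 and 0.522).

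Tet2 showed the clearest difference of the erasers. Its level in GMYC tumors 1 to 6 was 137, 176, 138, 138, 125 and 164 CPM, and in GTML tumors 1 to 8 it was 177, 204, 269, 214, 243, 252, 267 and 195 CPM. The lowest GTML tumor lay above the highest GMYC tumor, though the gap between GMYC tumor 2, at 176.2 CPM, and GTML tumor 1, at 176.9 CPM, was small. Of all genes tested, 2.14% had such non-overlapping models with GTML higher. The means were 146 ± 19.4 CPM (SD, n = 6) and 228 ± 34.7 CPM (SD, n = 8), 1.55-fold apart. The log2 fold change was 0.64 (SE 0.116, edgeR adjusted p = 0.00427), and by p the gene stood at rank 253 of the 21024. Leaving out each tumor moved it between 0.59 and 0.69, with an adjusted p of at most 0.014.

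The Tet2 difference was in the same direction on both sides of the small nucleolar RNA split. On the higher side, GTML tumors 1 and 2 were above GMYC tumors 1 to 4, with a log2 fold change of 0.38 (adjusted p = 0.388, edgeR on 6 tumors). On the lower side, GTML tumors 3 to 8 were above GMYC tumors 5 and 6, with 0.72 (adjusted p = 0.0287, edgeR on 8 tumors). A term for the split gave 0.56 (adjusted p = 0.0145) and a term for Y-linked counts 0.64 (adjusted p = 0.0186), both from edgeR. Tet2 shares 43 exon bases, 0.255% of its exons, with an antisense gene, Gm42567.

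Tet1 and Tet3, the other oxidising enzymes, had higher means in GTML and did not pass the threshold. Tet1 ranged from 99.3 through a median of 141 to 176 CPM in GMYC and from 99.5 through a median of 165 to 226 CPM in GTML. Its lowest GTML tumors, 2 and 4 with 99.5 and 105 CPM, sat at the bottom of the GMYC range, and its log2 fold change was 0.26 (SE 0.186, edgeR adjusted p = 0.312). Tet3 ranged from 213 through a median of 246 to 305 CPM in GMYC and from 236 through a median of 286 to 429 CPM in GTML. GTML tumor 7 was the highest and GTML tumor 8 lay below the GMYC median, and the log2 fold change was 0.27 (SE 0.131, edgeR adjusted p = 0.149). On the higher side of the split Tet1 and Tet3 were at 0.001 and 0.161 (edgeR adjusted p = 1 and 0.669), and on the lower side at 0.45 and 0.34 (edgeR adjusted p = 0.259 and 0.307). Whether the Tet2 difference is larger than that of Tet1 or Tet3 was not tested.

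Tdg, the glycosylase that removes the oxidised bases, had the largest log2 fold change of the 9 in absolute size. GMYC tumors 1 to 6 had 35.5, 40.1, 33.5, 41.2, 76.3 and 96.0 CPM, and GTML tumors 1 to 8 had 41.8, 33.2, 23.5, 26.6, 27.2, 32.2, 29.4 and 25.7 CPM. GMYC tumors 5 and 6 stood above all other tumors, and GTML tumor 1 was above 4 GMYC tumors. The means were 53.8 ± 26.0 CPM (SD, n = 6) and 29.9 ± 5.80 CPM (SD, n = 8), 1.80-fold higher in GMYC, with a log2 fold change of -0.84 (SE 0.238, edgeR adjusted p = 0.0227). Without GMYC tumor 5 the log2 fold change was -0.72 (adjusted p = 0.0608), without GMYC tumor 6 it was -0.60 (adjusted p = 0.057), and without both it was -0.33 (adjusted p = 0.203), each from edgeR. With a term for Y-linked counts it was -0.73 (edgeR adjusted p = 0.117). With both tumors left out, Tet2 was the 1 gene of the 9 still called, at 0.63 (adjusted p = 0.0235, edgeR).

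The Tdg values differed between the models on the lower side of the small nucleolar RNA split. On the lower side, GMYC tumors 5 and 6 against GTML tumors 3 to 8, the log2 fold change was -1.66 (adjusted p = 0.00358, edgeR on 8 tumors). On the higher side, GMYC tumors 1 to 4 and GTML tumors 1 and 2 covered the same range, with 0.01 (adjusted p = 0.988, edgeR on 6 tumors). The difference between the sides was not tested. The summed markers of mature granule neurons were at 221 and 263 CPM in GMYC tumors 5 and 6, inside the 125 to 302 CPM of the other GMYC tumors, and their summed astrocyte markers, at 807 and 926 CPM, were inside 695 to 1228 CPM. The astrocyte sum was mostly Slc1a2, the gene of Glt1, whose promoter drives the transgene, with a GMYC mean of 702 CPM. Summed oligodendrocyte lineage markers of GMYC tumors 5 and 6, at 338.5 and 294.5 CPM, were inside the 152 to 342 CPM of the other GMYC tumors. For the remaining markers, either tumor or both stood at an end of the GMYC range. Their summed tumor identity markers, at 756 and 710 CPM, were above the 640 to 675 CPM of the other GMYC tumors. Summed microglia markers were the highest of the GMYC tumors in tumor 5, at 259 CPM, and the lowest in tumor 6, at 152 CPM, and tumor 6 also had the highest photoreceptor sum, at 512 CPM, and the lowest endothelial sum, at 56.2 CPM. The part of these markers in the Tdg values was not tested.

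**Figure D2:**
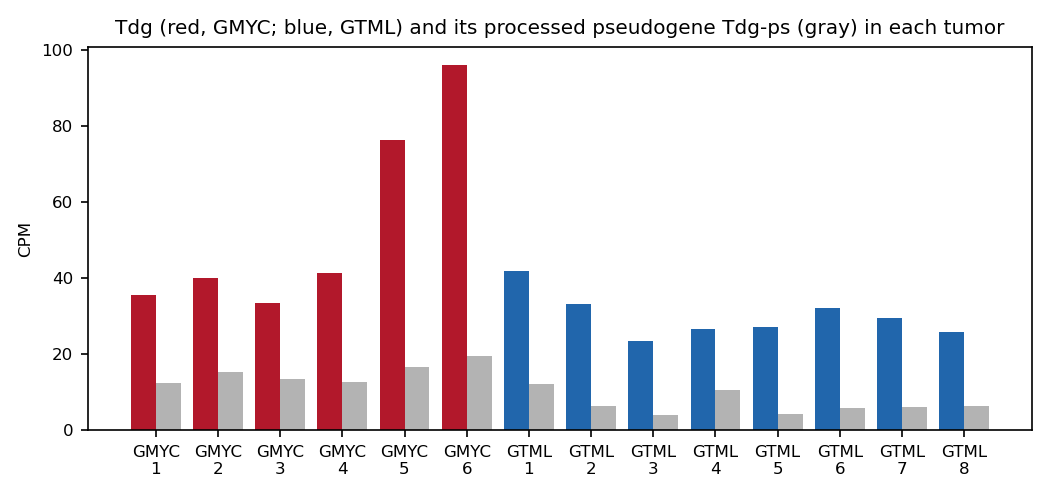
Normalised level (CPM) of Tdg (red in GMYC, blue in GTML) and of its processed pseudogene Tdg-ps (gray) in each of the 14 tumors. Tdg was highest in GMYC tumors 5 and 6, at 76.3 and 96.0 CPM, and Tdg-ps was below Tdg in every tumor.

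Reads of Tdg can be shared with a processed pseudogene, Tdg-ps, a near copy of its transcript. Tdg-ps had 12.5 to 19.5 CPM in GMYC and 3.83 to 12.2 CPM in GTML, so the models did not overlap, though GTML tumor 1, at 12.2 CPM, came close to GMYC tumor 1, at 12.5 CPM. Its log2 fold change was -1.12 (SE 0.268, edgeR adjusted p = 0.0119). Tdg took 71.6% to 86.9% of the counts of the pair. With the counts of both summed, the log2 fold change was -0.90 (adjusted p = 0.0123, edgeR), so the call on Tdg was also made when reads that may be split between the copies were added up. A further 6.83% of the exon bases of Tdg overlap Glt8d2 on the opposite strand, where reads cannot be told apart.

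**Figure D3:**
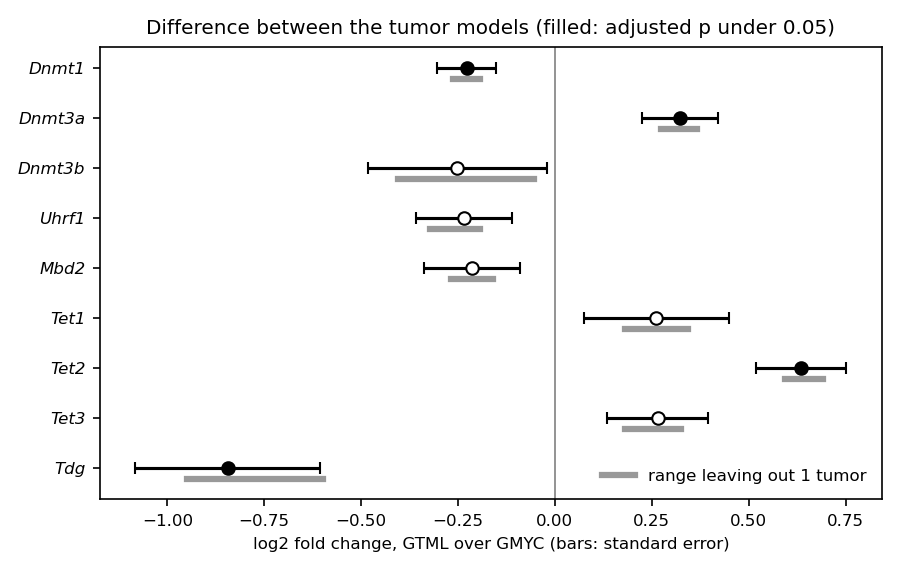
Log2 fold change of GTML over GMYC for each gene, with its standard error as black bars and a filled point where the adjusted p was under 0.05. Gray bars give the range of the log2 fold change when each tumor was left out in turn, which for Tet2 was 0.59 to 0.69.

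Levels were set between genes per exon length, as RPKM, the CPM divided by the exon length in kilobases. This length joins all annotated exons of a gene, which gave 4259 bases for Uhrf1 and 16695 for Tet3. By CPM alone the GMYC mean was 234 for Uhrf1 and 253 for Tet3, so the place of Uhrf1 above Tet3 rests on these lengths. The maintenance pair was far above the rest, with Dnmt1 at 62.1 ± 5.80 RPKM (SD, n = 6) in GMYC and 53.0 ± 3.55 RPKM (SD, n = 8) in GTML, and Uhrf1 at 55.0 ± 6.16 and 46.8 ± 9.24 RPKM. The lowest Uhrf1 tumor was above the highest Tet3 tumor, the next gene in order, in both models. In GMYC the order went on with Tet3 at 15.1, Dnmt3a at 14.5, Mbd2 at 13.5, Tdg at 10.01, Tet1 at 8.96, Tet2 at 8.68 and Dnmt3b at 7.82 RPKM. In GTML it went on with Tet3 at 18.2, Dnmt3a at 18.1, Tet2 at 13.5, Mbd2 at 11.6, Tet1 at 10.7, Dnmt3b at 6.56 and Tdg at 5.57 RPKM. Below Uhrf1, the ranges of every pair of neighbours overlapped in both models, as did those of Dnmt1 and Uhrf1. Tet2 stood at rank 8 in GMYC and 5 in GTML, and Tdg at rank 6 and 9.

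**Figure D4:**
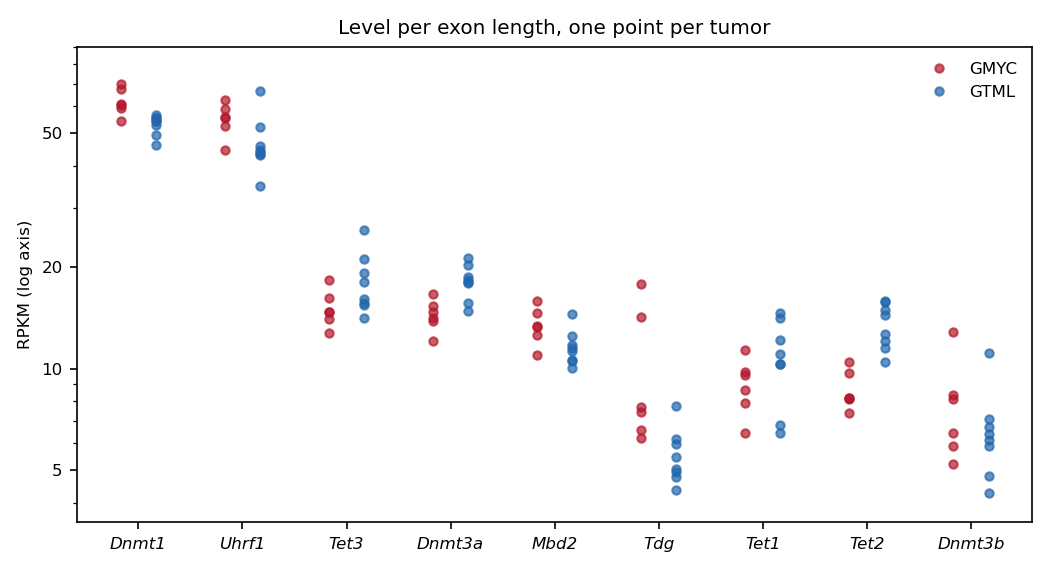
Level per exon length (RPKM, log axis) of the 9 genes, 1 point per GMYC (red) or GTML (blue) tumor, ordered by the GMYC mean. Dnmt1 and Uhrf1 lie above the other genes in every tumor, and the ranges of the others overlap their neighbours.

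Ratios within a tumor compared genes that share a role without any scaling between libraries. The log2 ratio of Dnmt3b to Dnmt3a per length was -0.95 ± 0.61 (SD, n = 6) in GMYC and -1.51 ± 0.57 (SD, n = 8) in GTML, a difference of -0.56 (p = 0.107, adjusted over 3 ratios p = 0.32, exact two-sided permutation test). Dnmt3b was thus below Dnmt3a on average in both models, and the models overlapped. The ratio of Uhrf1 to Dnmt1 was -0.18 ± 0.12 in GMYC and -0.20 ± 0.28 in GTML, and differed by -0.02 (p = 0.855, adjusted p = 0.907, same exact permutation test). The ratio of Tet1 to Tet3 was -0.77 ± 0.22 and -0.79 ± 0.41, and differed by -0.02 (p = 0.907, adjusted p = 0.907, same exact permutation test). For none of the 3 ratios was the difference larger than the spread between tumors.

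The levels of the 9 genes within a model were compared through their residuals, the log2 CPM of each tumor minus the mean of its model. Over the 14 tumors, Spearman's rho was -0.68 between Dnmt3a and Dnmt3b, 0.67 between Dnmt3a and Tet1, and -0.69 between Uhrf1 and Tet1, and 0.61 between Tet1 and Tet2. Dnmt1 and Uhrf1 had a rho of 0.17. Tdg had a rho between -0.28 and 0.13 with each of the others. These values describe 14 tumors that share depth and library differences. Among 12163 other genes with a mean of at least 10 CPM, the residuals most like those of Tet2 were of Spop (rho 0.87) and Egr1 (0.85), those most like Dnmt3a of Clcn3 (0.94) and Elmod2 (0.92), and those most like Tdg of Aph1a and Ankrd50 (both 0.84). Uhrf1 was like Ddx20 (0.94), and Dnmt1 like Fam204a (0.87). Dnmt3b was most like Vav2 (0.92) and Tfpi (0.84), and Mbd2 most like Kdm6a (0.84) and Calcrl (0.79). Tet1 was most like Pcdhgc4 and Zfp3 (both 0.89), and Tet3 most like Prrc2b (0.96) and Brpf3 (0.92). These genes were picked as the highest among 12163 values over 14 tumors. The rho that the highest of so many unrelated genes would reach was not tested, so they are not shown to be partners.

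The wider machinery around the 9 genes was followed through 7 lists, of which 91 genes were tested and 15 passed the threshold (16.5%, against 21.2% of all genes). Among 13 tested genes of maintenance and of targeting to DNA, 2 were higher in GTML and 1 in GMYC, with a median log2 fold change of -0.06 beside 0.04 over all genes tested. Zfp57, a zinc finger protein that keeps imprints methylated, was at 25.5 ± 15.9 CPM (SD, n = 6) in GMYC and 78.3 ± 24.1 CPM (SD, n = 8) in GTML, a log2 fold change of 1.62 (adjusted p = 0.0105, edgeR). Zcwpw1, a histone mark reader of germ cells, was at 1.34 (adjusted p = 0.0228). Pcna, the replication clamp to which DNMT1 binds, was higher in GMYC, at 138 ± 15.2 CPM against 95.6 ± 26.4 CPM, a log2 fold change of -0.53 (adjusted p = 0.0362). Hells, a chromatin remodeler needed for methylation, was at -0.23 and did not pass (adjusted p = 0.188).

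Of the 9 other methyl-CpG readers, 1 was higher in GTML and 0 in GMYC, with a median of 0.26. The called gene was Zbtb4, a zinc finger reader, at 1.33 (adjusted p = 0.0123, edgeR). Of the 12 NuRD partners of MBD2, the remodelers Chd5 (1.56, adjusted p = 0.0425) and Chd3 (0.60, adjusted p = 0.0499) were higher in GTML, and the deacetylase Hdac2 (-0.37, adjusted p = 0.00909) was higher in GMYC, with a median of -0.03.

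Of the 20 TET partners and base excision repair genes, 1 passed, with a median of -0.05. It was Cxxc4, whose protein binds unmethylated CpG and TET2, at 50.8 ± 12.9 CPM (SD, n = 6) in GMYC and 79.0 ± 21.2 CPM (SD, n = 8) in GTML, a log2 fold change of 0.64 (adjusted p = 0.0397, edgeR). A further list had 10 tested genes that make, use or recycle S-adenosylmethionine, the methyl donor, with a median of -0.07. Gnmt was higher in GTML (1.03, adjusted p = 0.0272) and Adk higher in GMYC (-0.57, adjusted p = 0.0201), both from edgeR. Of the 20 S phase and proliferation genes, 3 were higher in GMYC and 0 in GTML, and 15 had a negative log2 fold change, with a median of -0.17. The called genes were Ccnb1 (-0.77, adjusted p = 0.0176) and Cdk1 (-0.53, adjusted p = 0.0348), which drive mitosis, and Rrm1 (-0.40, adjusted p = 0.02), which makes deoxynucleotides. Dnmt1 is transcribed with replication genes in dividing cells, and its log2 fold change of -0.23 stood beside this median. The part of proliferation in the Dnmt1 difference was not tested.

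**Figure D5:**
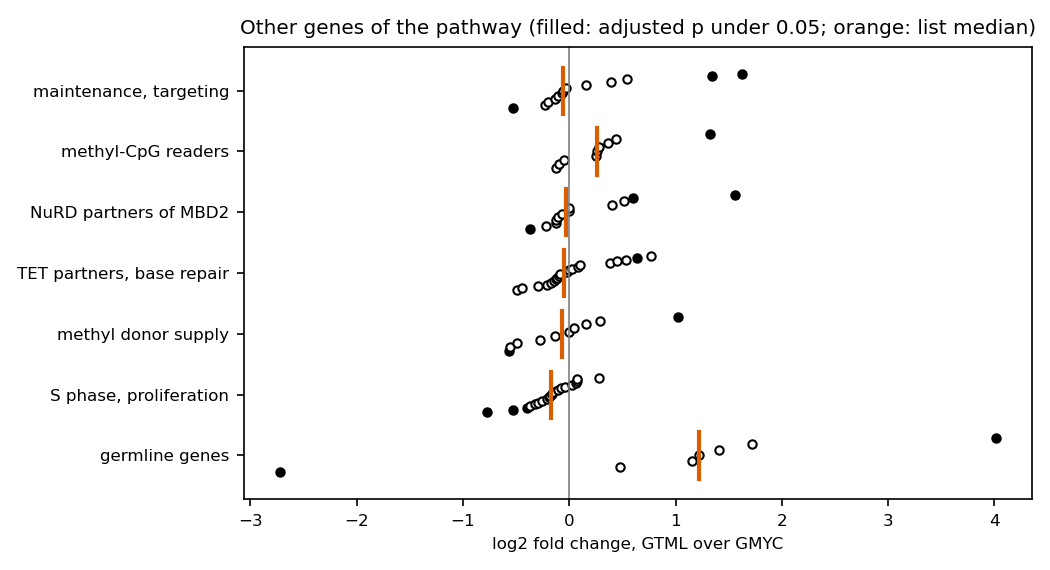
Log2 fold change of GTML over GMYC for each tested gene of 7 lists around DNA methylation, filled where the adjusted p was under 0.05, with the list median in orange. In 6 lists the median lay between -0.17 and 0.26, and in the germline genes it was 1.22 over 7 tested genes.

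The last list held 16 germline genes that promoter methylation is known to silence in somatic cells. Of these, 9 had too few counts to be tested, with at most 11 counts in any tumor. Of the 7 tested, 1 was higher in GTML and 1 in GMYC, with a median of 1.22. Taf7l, a testis form of a general transcription factor subunit, had 0 to 0.153 CPM in GMYC and 0.611 to 1.94 CPM in GTML, with at most 9 counts in any tumor. It passed the filter through the GTML tumors alone, so its call is no evidence of a difference in the list. Slc25a31, a testis ADP/ATP carrier, was at -2.73 (adjusted p = 0.0266, edgeR), with 0.574 to 17.7 CPM in GMYC and 0.176 to 1.13 CPM in GTML. The filter keeps such a gene through the tumors in which it is high, so the median over the 7 is no measure of the list.

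Markers of other cell types were set beside these values. Summed astrocyte markers were 695 to 1228 CPM in GMYC and 377 to 897 CPM in GTML, with 0 of 6 genes called at an adjusted p of 0.05 and 1 at an unadjusted p of 0.05. Most of each sum was Slc1a2, the Glt1 gene whose promoter drives both transgenes, at 702 ± 103 CPM (SD, n = 6) and 587 ± 156 CPM (SD, n = 8). The sum is thus no plain measure of astrocytes. All 6 astrocyte genes had a negative log2 fold change, with a median of -0.79 beside 0.04 over all genes tested. Summed microglia and macrophage markers were 152 to 259 CPM and 84.6 to 341 CPM, with 0 of 7 called and 0 at an unadjusted p of 0.05. Summed endothelial markers were 56.2 to 160 CPM and 106 to 259 CPM, with 1 of 5 called, Kdr (1.34, adjusted p = 0.035, edgeR). Summed oligodendrocyte lineage markers were 152 to 342 CPM and 156 to 346 CPM, with Mog higher in GTML and Olig2 higher in GMYC. Summed markers of mature granule neurons were 125 to 302 CPM and 70.6 to 209 CPM, with Cbln3 higher in GMYC. Cbln3 was uneven there, at 0 to 62.6 CPM (mean 12.7, SD 24.8), against 0.306 to 2.12 CPM in GTML. Photoreceptor markers, which this tumor type expresses, summed to 395 to 512 CPM and 117 to 1048 CPM, with 4 of 6 genes higher in GTML. Tubb3, a neuronal tubulin, was higher in GMYC (-0.44, adjusted p = 0.0226, edgeR). The part of these cells in the differences of the 9 genes was not tested.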

How the data were processed

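RNA from fresh-frozen biopsies of 6 GMYC and 8 GTML tumors was prepared by Ion Torrent protocols, per the labels. The methods name an Ion Proton sequencer for the GMYC tumors and state that part of the GTML data came from earlier work, with no label saying which. The authors aligned reads to mm9 with STAR and then Bowtie and counted them per gene with featureCounts, and deposited whole-number counts for 37310 genes without normalization. The submitters' processing notes name STAR 2.4.0, Bowtie2 2.2 and Subread 1.5.2. Handling of duplicates and strand is not given in the sources used here. Another 18 columns of per-sample values were left out, since no sample carries their names.

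The test ran on genes that exceeded a CPM of 1 in 3 or more tumors, in edgeR 4.0.16 under R 4.3.3 (TMM, quasi-likelihood test, Benjamini-Hochberg adjustment over all genes tested). A call is an adjusted p under 0.05, and log2 fold changes are GTML over GMYC. Ratios within a tumor, with 0.5 added to each count, were compared by exact two-sided permutation tests. Symbols, exon lengths and overlaps came from the GENCODE annotation of GRCm38, matched by Ensembl identifier for 32620 genes; promoter windows came from RefSeq on GRCm38.p6. No coordinates of mm9 are given. Total counts were 4602294 to 7279811 per tumor. No pair of tumors was a repeat of the same library, the lowest chi-square over its degrees of freedom being 5.67 among 43 pairs of the same model.

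The 9 genes and the lists, written from general knowledge, were chosen with earlier results of these data known. All 9 are named; of each list the called genes, at most 3 in each direction; and for each gene the 2 with the most similar residuals, of which some are not reported here. Hells and the genes overlapping the 9 in sequence or position were named after their values were seen. Alternatives were DESeq2 1.42.0, limma-voom (limma 3.58.1), relative log expression and library size scaling, other filters, protein-coding genes only, thinned counts, terms for the small nucleolar RNA split at 0.3% and for Y-linked counts of at least 100, each side of the split alone, the tumor number as a block, and leaving out each tumor. Summing Tdg with Tdg-ps, leaving out GMYC tumors 5 and 6 and using tumors 1 to 6 without the block were chosen after seeing the data. The code was tested on simulated counts, and matplotlib 3.10.9 under Python 3.11.15 drew the figures.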

Additional observations from a re-analysis of the deposited data

Results flagged for a closer look

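Of 24 groups, the 9 genes and 3 ratios in each model, 2 had a tumor that stood further from its neighbour, relative to the range, than Dixon's 95% limit allows, and chance gives about 1.2. Both were GTML tumor 2. Its Dnmt3b level of 56.9 CPM was the highest of the GTML tumors, the next being 36.2 CPM, a gap of 0.589 of the range. Its log2 ratio of Uhrf1 to Dnmt1 per length was 0.433, the next highest GTML tumor being at -0.05, a gap of 0.582 of the range. The same tumor had the highest Uhrf1 level of the 14, at 283 CPM, and the lowest Tet1 and Dnmt3a levels of the GTML tumors, at 99.5 and 246 CPM. Its summed markers of photoreceptors (117 CPM, next tumor 372), of astrocytes (377 CPM, mostly Slc1a2) and of mature granule neurons (70.6 CPM) were the lowest of the 14. No label says whether GTML tumor 2 is the tumor that the study describes as SHH-like.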

How the results depend on the processing

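Tet2 was called in 14 of 16 settings other than leaving out 1 tumor, with a log2 fold change of 0.38 to 0.72. DESeq2 and limma-voom called the same 4 of the 9 genes as edgeR, which were Dnmt1, Dnmt3a, Tet2 and Tdg. They called 27.9% and 21.4% of all genes tested. The number called was 2 without a filter on low counts, 2 with the small nucleolar RNA split as a term, 2 on its lower side, 2 with a term for Y-linked counts, 1 without GMYC tumors 5 and 6, and 0 on the higher side of the split, where 1 had an unadjusted p under 0.05. These settings called 11.6%, 13.6%, 13.3%, 9.76%, 7.95% and 0.0106% of all genes tested, in the same order. The number called of the 9 was 0 at an adjusted p of 0.01 with an absolute log2 fold change above 1, against 3.22% of all genes. Leaving out each tumor gave 1 (without GMYC tumor 5, beside 13.9% of all genes) to 5 (without GTML tumor 2, beside 30.7%). It was 2 without GMYC tumor 1, 2, 3 or 6 or GTML tumor 6 or 7, beside 12.5% to 20.5%. Some of these settings used fewer tumors and others all 14. The cause of the changes was not tested.

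The tumor numbers shared by the models did not pair them, since the correlation of residuals was over 0.1 for 1 of 6 numbers (0.24, -0.02, -0.04, -0.21, 0.03 and -0.14 for numbers 1 to 6). With the number as a block over tumors 1 to 6, 0 of the 9 genes were called (3 at an unadjusted p under 0.05), 251 of all genes and 0 of the other listed genes (17 at an unadjusted p under 0.05), and Tet2 was at 0.63 (adjusted p = 0.0604, edgeR). Without the block on the same tumors the numbers were 1, 2380 and 6.

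Of all genes, 4459 were called over all tumors, 2964 among protein-coding genes only, 2851 with the term for the split, 2 on its higher side (2420 at an unadjusted p under 0.05), 2662 on its lower side, 2051 with the term for Y-linked counts, 1659 without GMYC tumors 5 and 6, and 2617 to 6430 when each tumor was left out, the lowest without GMYC tumor 3, the highest without GTML tumor 2, and 2916 without GMYC tumor 5. Of the other listed genes, 15 were called over all tumors, 6 with the term for the split, 0 on its higher side (7 at an unadjusted p under 0.05), 7 with the term for Y-linked counts, 3 without GMYC tumors 5 and 6, and 8 (without GTML tumor 7) to 23 (without GTML tumor 2) when each tumor was left out, with 9 without GMYC tumor 3 or 5 or GTML tumor 5.

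Directions turned only for values near 0 or on part of the tumors. On the higher side of the split the log2 fold change was 0.16 for Dnmt3b, 0.013 for Uhrf1 and 0.009 for Tdg, and the difference in the log2 ratio of Uhrf1 to Dnmt1 was 0.19. The latter was 0.011 with the tumor number as a block. That of Tet1 to Tet3 was 0.004 in thinned counts and 0.12 on the lower side. When each tumor was left out, the differences ranged from -0.72 to -0.35 for Dnmt3b to Dnmt3a, -0.12 to 0.06 for Tet1 to Tet3 and -0.11 to 0.007 for Uhrf1 to Dnmt1.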
